A study of Sus scrofa with 12 samples.

Results

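Apolipoproteins are the protein parts of the particles that carry cholesterol and triglycerides in blood, and the liver secretes most of them. APOB is the scaffold of very low density lipoprotein (VLDL) and of the low density lipoprotein formed from it, whereas APOA1 and APOA2 are the main proteins of high density lipoprotein (HDL). The smaller exchangeable apolipoproteins move between particles and set how fast lipases empty them and how receptors take them up. Transcripts of these genes were followed in the liver of pigs that differed in residual feed intake (RFI), the feed an animal eats beyond what its growth and maintenance predict, so that a low value marks an efficient animal. The members were all probe sets whose only gene symbol in the platform annotation was APOA1, APOA2, APOA4, APOA5, APOB, APOC3, APOE, APOH, APOM or APOR. Of these 10 symbols, 9 had a probe set and APOR had none, which gave 20 probe sets among 47845 on the array. APOB had 6 probe sets, APOA4 had 3, APOA1, APOA2, APOA5 and APOM had 2 each, and APOC3, APOE and APOH had 1 each.

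Livers were taken at day 140 of life from 6 low RFI pigs and 6 high RFI pigs, with 3 females and 3 males in each class. All were fattening pigs from crossbred sows and boars of one sire line, slaughtered in the fed state, and the design holds no treatment. Each array held the RNA of 1 pig, and the class is a ranking of animals within one population and not a genetic line. Values are log2 signals on the Snowball array for the pig, on which 1 unit is a doubling of signal. Pigs are numbered 1 to 6 within each class in the order of their samples, which pairs no animals, and in both classes pigs 1 to 3 were males and pigs 4 to 6 females. The methods describe the animals as divergent siblings of the same sex, but the labels give no litter.

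The 12 arrays were alike in scale, with array medians between 3.48 and 3.53 and correlations between arrays of 0.976 to 0.985. High RFI pig 5 stood apart from its class: on the first principal component, which held 14.8% of the variance, the low RFI pigs lay between -37.54 and -8.73 and high RFI pig 5 at -28.15, while the other high RFI pigs lay between 7.77 and 40.05. Control probe sets that match no transcript, taken at a GC count of 17 to 24, averaged 6.55 ± 0.08 in low RFI pigs and 6.69 ± 0.11 in high RFI pigs (SD, n = 6 each), and high RFI pig 5 had 6.49. Markers of hepatocytes were bright in every pig, with a mean over 9 genes of 11.74 to 11.91 in low RFI pigs and 11.75 to 11.91 in high RFI pigs, although AHSG, a plasma glycoprotein gene of hepatocytes, was dim at 1.66. The mean levels of marker genes of Kupffer, endothelial, cholangiocyte, stellate, lymphoid and erythroid cells overlapped between the classes. Such overlap is usual, since only 0.339% of all probe sets lacked it. The Kupffer mean was 7.74 to 8.29 in low RFI pigs and 7.49 to 7.97 in high RFI pigs. At an unadjusted limma p under 0.05, 1 of 5 Kupffer and 1 of 7 stellate genes were higher in low RFI pigs. By that p 1 of 7 lymphocyte genes was lower, beside 7.29% of all probe sets in either direction. In whole liver, fewer cells of a type and less RNA per cell cannot be told apart.

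Most apolipoprotein probe sets were among the brightest on the array. The median level over the 20 probe sets was 9.62, against 3.50 over all probe sets. APOC3, which inhibits lipoprotein lipase and slows the clearance of triglyceride-rich particles, had a mean of 13.05 ± 0.16 in low RFI pigs and 13.14 ± 0.08 in high RFI pigs. APOH, a phospholipid-binding plasma protein also known as beta-2-glycoprotein I, had 12.94 ± 0.09 in low RFI pigs and 12.85 ± 0.13 in high RFI pigs. Both lay at the 99.9th percentile of signal. APOE, the ligand by which the liver takes up remnant particles, had 11.41 ± 0.14 in low RFI pigs and 11.43 ± 0.04 in high RFI pigs.

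The probe sets of 1 gene lay far apart in signal, so their order shows how brightly each one bound and not how many transcripts a gene had. Of the 6 APOB probe sets, 4 lay at the 99.0th percentile or above, with means over all pigs between 10.18 and 12.43. The other two, SNOWBALL_041078 and SNOWBALL_027091, averaged 1.69 and 1.29, which lay at the 17.1th and 1.35th percentiles of signal. The APOA2 probe set SNOWBALL_000840 averaged 12.33 and SNOWBALL_005888 averaged 7.77 over all pigs. APOA4 had probe sets at 8.41, 7.42 and 4.06. APOM, which carries sphingosine-1-phosphate on HDL, had probe sets at 7.58 and 7.04.

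**Figure D1:**
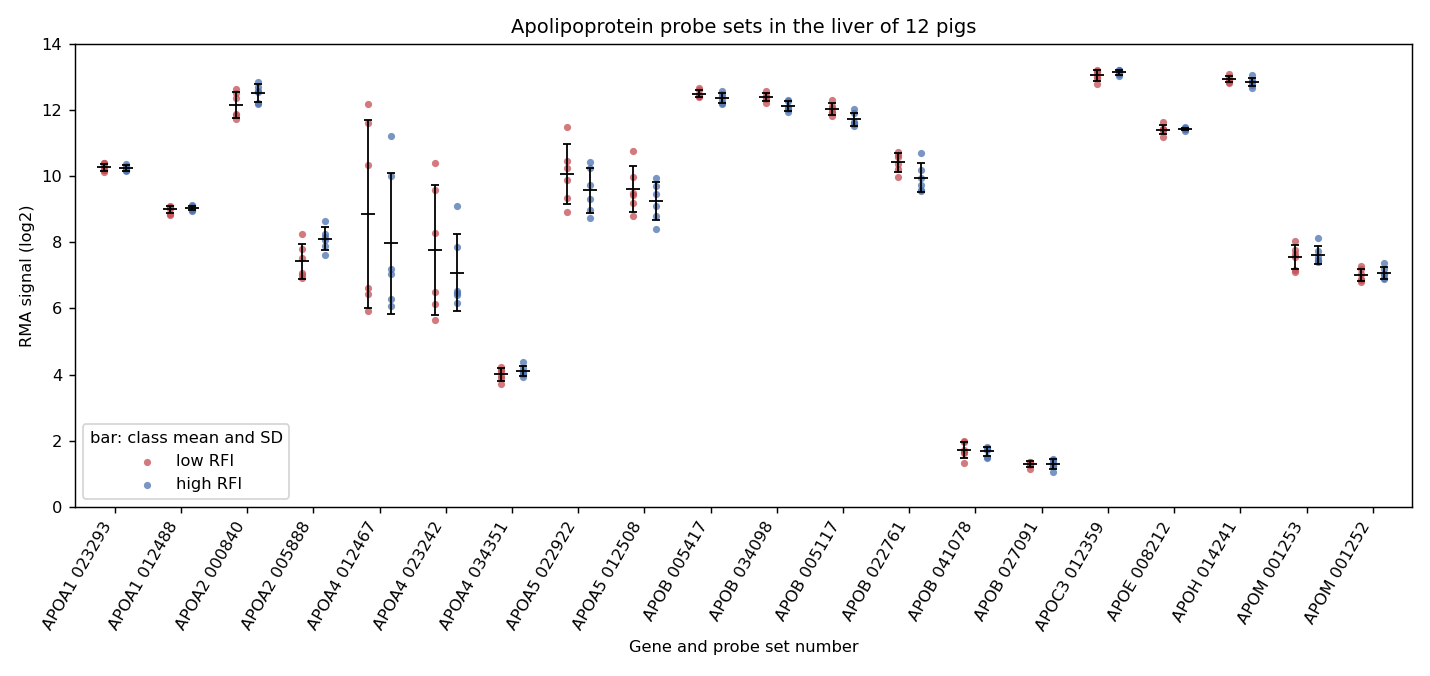
Log2 signal of each apolipoprotein probe set, with 1 point per pig, low RFI and high RFI pigs side by side, and bars for the class mean and its SD (n = 6 each). The APOC3 and APOH pigs sit close together near 13, the APOA4 probe set SNOWBALL_012467 is spread between 5.92 and 12.19, and the classes overlap for every probe set.

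The main question was whether the liver of pigs with low RFI held other amounts of these transcripts than the liver of pigs with high RFI. With all probe sets in the fit and no filter on SD, no apolipoprotein probe set passed a q-value of 0.3 in limma, the threshold the study used (0 of 20), and over the whole array 15 of 47845 probe sets did (0.0314%). At an unadjusted p under 0.05, 4 of the 20 probe sets (20%) were past it, against 7.29% of all probe sets. Most members are bright, and with probe sets below the median signal left out it was 4 of 18, against 9.39% of those left. The 4 of the 20 were 3 APOB probe sets, higher in low RFI pigs, and 1 APOA2 probe set, lower in low RFI pigs, so 2 genes carried all 4. The direction shares over the array were 3.79% higher and 3.51% lower. Differences are low RFI minus high RFI by the sample labels. By that rule SQLE, the squalene epoxidase gene of sterol synthesis, differed by 0.75. The sign the paper gives this gene is the opposite one, as it is for NR1H4 and SDC1, which are reported further below. By the paper's signs, SQLE and NR1H4 were lower and SDC1 was higher in efficient pigs. The direction of every difference below therefore rests on the labels alone, and which direction is right was not tested.

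The 4 bright APOB probe sets were all higher in low RFI pigs on average, while the dim ones differed by 0.04 (SNOWBALL_041078) and by less than 0.01 (SNOWBALL_027091). APOB encodes the single large protein without which the liver cannot export VLDL. SNOWBALL_022761 ranged from 9.98 to 10.73 with a median of 10.47 in low RFI pigs, and from 9.56 to 10.70 with a median of 9.83 in high RFI pigs. Low RFI pig 6 had the lowest value of its class, and high RFI pig 5, at 10.70, overlapped with the top of the low RFI pigs. The difference was 0.47 ± 0.19 (SE) or 1.38-fold, with an unadjusted 95% interval of 0.06 to 0.88 on the log2 scale, and limma gave q = 0.566.

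SNOWBALL_005117 ranged from 11.82 to 12.32 with a median of 12.01 in low RFI pigs, against 11.51 to 12.04 with a median of 11.62 in high RFI pigs. Here again pig 5 was the highest of the high RFI pigs. The difference was 0.32 ± 0.12 (SE; 95% interval 0.07 to 0.57; 1.25-fold; limma q = 0.536). SNOWBALL_034098 ranged from 12.22 to 12.57 with a median of 12.38 in low RFI pigs, against 11.96 to 12.32 with a median of 12.06 in high RFI pigs, a difference of 0.27 ± 0.09 (SE; 95% interval 0.07 to 0.47; 1.21-fold; limma q = 0.534). The brightest APOB probe set, SNOWBALL_005417, gave 12.49 ± 0.11 in low RFI pigs and 12.37 ± 0.16 in high RFI pigs, a difference of 0.13 with a 95% interval of -0.08 to 0.33 (q = 0.699). In each of these 4 probe sets, 6 of 6 low RFI pigs lay above the high RFI mean, yet the ranges of the classes overlapped. The 4 probe sets read the same gene in the same animals and are not independent of each other.

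Whether APOB was called depended on the filter and on high RFI pig 5. The study left out probe sets with the lowest SD over all samples and the highest SD within a class before the fit, in wording that allows more than one reading. With both percentiles taken over all probe sets, SNOWBALL_022761 was left out and no member passed the threshold. With the high-SD percentile taken over the probe sets left by the low-SD step, a reading added after seeing the data, SNOWBALL_022761 was kept and passed it (q = 0.254), the only one of the 9 members kept to do so, beside 2.25% of the 36526 probe sets kept. Without high RFI pig 5 and with no filter, the 3 APOB probe sets passed the threshold, with differences of 0.62 (q = 0.173), 0.39 (q = 0.235) and 0.31 (q = 0.267), and 1345 of 47845 probe sets did so over the array (2.81%). With the signal of the control probe sets as a covariate the same differences shrank to 0.09, 0.13 and 0.15. With that covariate no probe set of the array passed the threshold. The covariate itself differed between the classes, at 6.55 ± 0.08 (SD) in low RFI pigs and 6.69 ± 0.11 in high RFI pigs. This fit therefore cannot separate the control signal from RFI class.

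APOA2 ran the other way. APOA2 is the second most abundant HDL protein and in mice and humans affects how HDL is remodelled. SNOWBALL_005888 ranged from 6.92 to 8.26 with a median of 7.30 in low RFI pigs, against 7.62 to 8.65 with a median of 8.12 in high RFI pigs. Pigs 3, 5 and 6 were the lowest of the low RFI pigs, between 6.92 and 7.07. Low RFI pigs 2 and 4, at 8.26 and 7.80, lay inside the high RFI range. The difference was -0.68 ± 0.23 (SE) or 0.62-fold, with an unadjusted 95% interval of -1.17 to -0.19 on the log2 scale, and limma gave q = 0.519.

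The brighter APOA2 probe set, SNOWBALL_000840, ranged from 11.72 to 12.63 with a median of 12.13 in low RFI pigs, against 12.17 to 12.85 with a median of 12.56 in high RFI pigs. It averaged 12.16 ± 0.39 in low RFI pigs and 12.51 ± 0.27 in high RFI pigs, a difference of -0.34 ± 0.18 (SE; 95% interval -0.72 to 0.03; limma q = 0.622). Pigs 3, 5 and 6 again had the lowest values of the low RFI pigs, 11.85, 11.88 and 11.72. In low RFI pigs, 5 of 6 lay below the high RFI mean for SNOWBALL_005888 and 4 of 6 for SNOWBALL_000840. With the control probe sets as a covariate the difference was -0.91 for SNOWBALL_005888 and -0.57 for SNOWBALL_000840 (limma q = 0.992 for each). As for APOB, that fit cannot separate the control signal from RFI class.

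**Figure D2:**
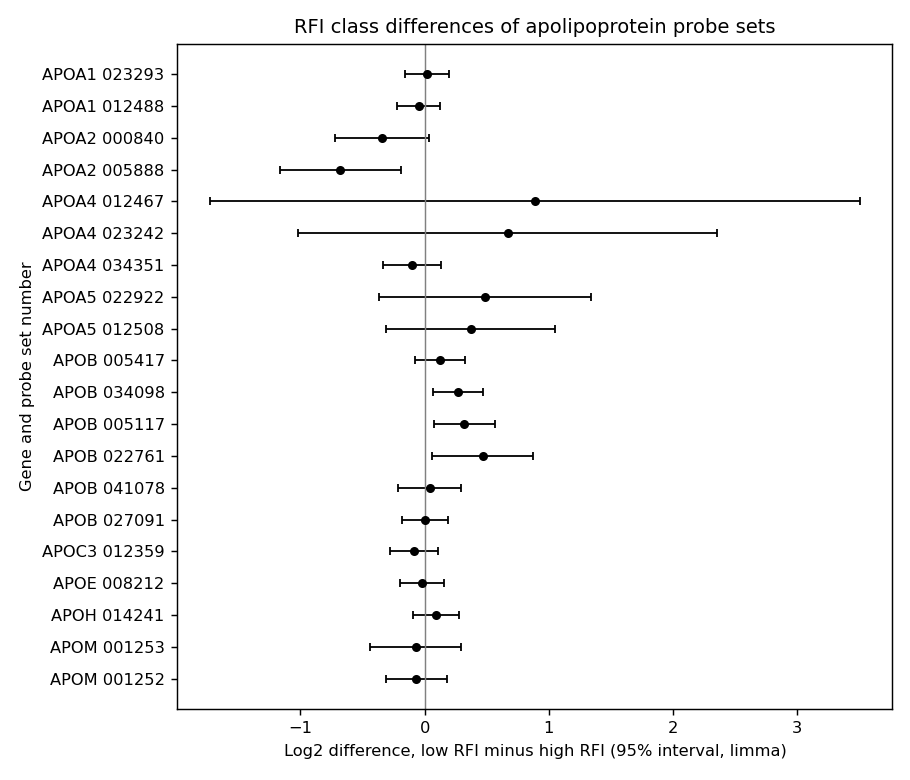
Log2 difference, low RFI minus high RFI, of each apolipoprotein probe set with its 95% interval from limma (6 pigs in each class, not adjusted for the number of probe sets). The intervals of 3 APOB probe sets lie above 0 and that of the APOA2 probe set SNOWBALL_005888 lies below 0, and the interval of APOA4 SNOWBALL_012467 runs from -1.73 to 3.51.

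The remaining HDL and VLDL members gave small differences. APOA1, which builds the HDL particle and activates the cholesterol-esterifying enzyme LCAT, had 10.26 ± 0.12 in low RFI pigs and 10.24 ± 0.08 in high RFI pigs with SNOWBALL_023293, a difference of 0.02 with a 95% interval of -0.16 to 0.20. Its second probe set, SNOWBALL_012488, had 8.99 ± 0.12 in low RFI pigs and 9.04 ± 0.07 in high RFI pigs. The differences were -0.09 for APOC3 (q = 0.762), -0.02 for APOE (q = 0.848), 0.09 for APOH (q = 0.745) and -0.07 for both APOM probe sets (q = 0.832 and 0.814). Their intervals all included 0, and for APOA1, APOC3, APOE and APOH they left out a difference of log2 signal as large as 0.3 in either direction. This bound is on signal and not on transcript amounts, because probe sets of 1 gene gave unlike differences. For APOB the difference was 0.47 at a mean of 10.18 but 0.13 at a mean of 12.43. The median difference over the 20 probe sets was 0.03, beside -0.01 over all probe sets, and 11 of 20 lay above 0 (55%), beside 46.7% of all. No member had class ranges that did not overlap, which 0.339% of all probe sets had.

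APOA4 and APOA5 were the members that varied most from pig to pig. APOA5 is a liver protein that raises the activity of lipoprotein lipase, and APOA4 is best known in humans and mice as a protein of the intestine that is carried on chylomicrons. SNOWBALL_012467 of APOA4 had an SD of 2.43 over the 12 pigs, where the highest 10% of all probe sets began at 0.428, and its highest pig stood 77.1-fold above its lowest. In low RFI pigs it read 5.92 in pig 1, 6.62 in pig 2, 10.35 in pig 3, 6.45 in pig 4, 12.19 in pig 5 and 11.60 in pig 6. In high RFI pigs it read 6.07 in pig 1, 7.19 in pig 2, 6.30 in pig 3, 7.03 in pig 4, 10.01 in pig 5 and 11.21 in pig 6. The pigs thus fell into 5 with values of 10.01 or more and 7 with values of 7.19 or less. Both classes held both kinds of pig, with 3 of 6 low RFI pigs and 2 of 6 high RFI pigs among the high values.

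A second APOA4 probe set, SNOWBALL_023242, gave the same 5 pigs its highest values, 8.27, 10.41 and 9.57 in low RFI pigs 3, 5 and 6, and 7.86 and 9.10 in high RFI pigs 5 and 6. Its other pigs lay between 5.64 and 6.53. The dim probe set SNOWBALL_034351 did not follow and stayed between 3.71 and 4.39. The class difference of SNOWBALL_012467 was 0.89 ± 1.22 (SE; 95% interval -1.73 to 3.51; q = 0.794). Leaving out single pigs gave differences of 0.22 to 1.54. The interval covered both a fall and a rise of several-fold, so at this spread a class difference of APOA4 was not detectable.

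**Figure D3:**
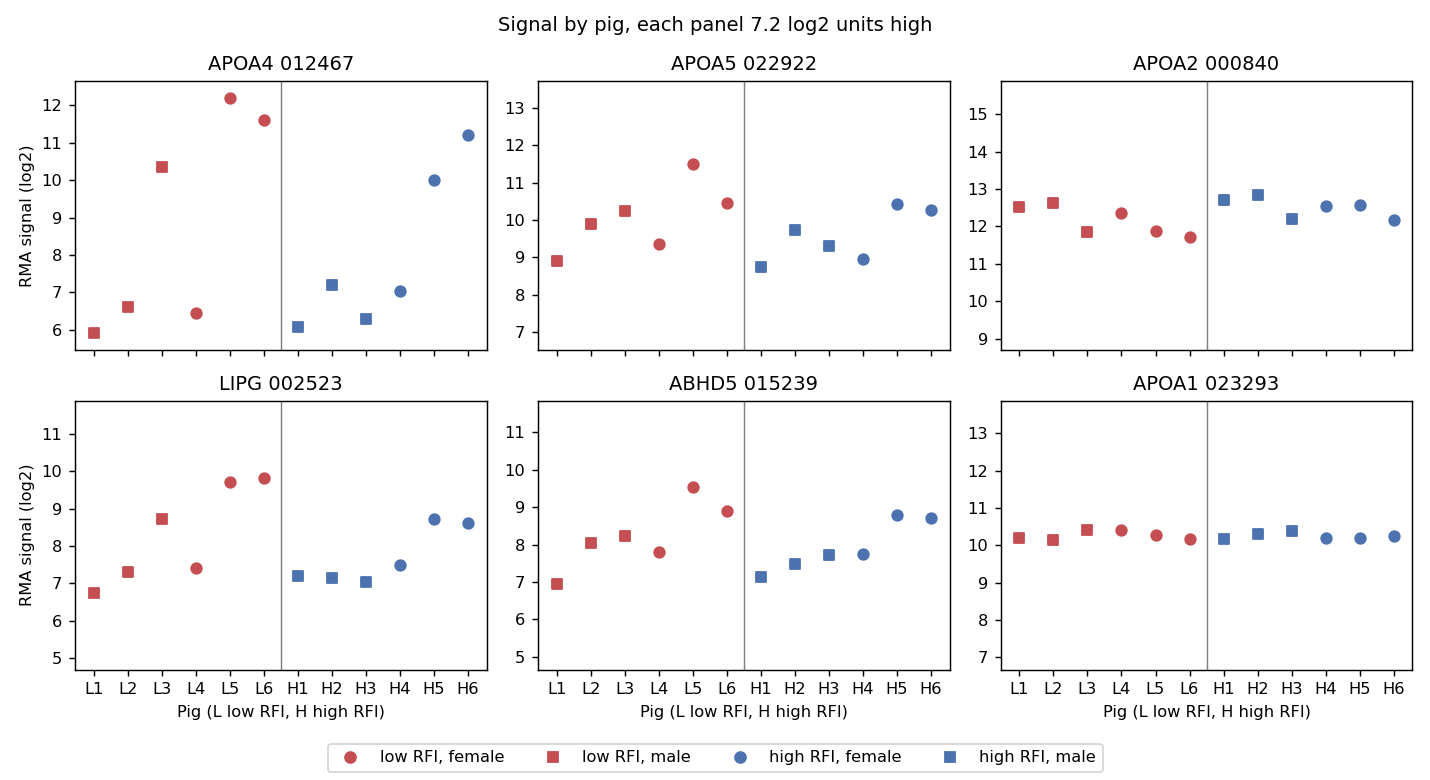
Log2 signal in each pig for APOA4, APOA5, APOA2, APOA1 and the genes LIPG and ABHD5, low RFI pigs (L1 to L6) left of high RFI pigs (H1 to H6), females as circles and males as squares. Low RFI pigs 3, 5 and 6 and high RFI pigs 5 and 6 have APOA4 values of 10.01 or more, and the other 7 pigs have 7.19 or less.

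APOA5 was spread more evenly. SNOWBALL_022922 ranged from 8.91 to 11.50 with a median of 10.07 in low RFI pigs, against 8.73 to 10.42 with a median of 9.53 in high RFI pigs, a difference of 0.48 ± 0.40 (SE; q = 0.716). Leaving out single pigs gave 0.20 to 0.71, and the control probe sets as a covariate gave 0.21. SNOWBALL_012508 averaged 9.61 ± 0.69 in low RFI pigs and 9.23 ± 0.58 in high RFI pigs (q = 0.725). Low RFI pig 5 had the highest value of all pigs with both probe sets and high RFI pig 1 the lowest. Over all pigs the highest value was 6.80-fold and 5.13-fold above the lowest.

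In the pig genome assembly Sscrofa11.1, APOA4, APOC3 and APOA1 are neighbours and APOA5 lies beyond APOA4 with 1 gene between them. The 4 genes of this cluster differed in their spread. Beside the SDs of 2.43 for APOA4 and 0.81 for APOA5, APOC3 had an SD of 0.13 and the APOA1 probe sets had 0.098 and 0.095. Markers of enterocytes, which express APOA4 in the bowel, had a mean over 4 genes of 2.63 to 2.93 in low RFI pigs and 2.65 to 2.93 in high RFI pigs. Of these genes, 3 lay below the array median, with FABP2 at 1.40 and SI at 1.65 over all pigs, and VIL1 was brighter at 5.35.

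Spread is related to brightness on this array, so each SD was also ranked among probe sets within 0.5 log2 units of its own level. APOA1 stayed at the bottom of the ranking, at the 3.99th and 2.15th percentiles, and APOE was at the 6.80th. APOC3 and APOH, which looked steady among all probe sets (7.90th and 4.78th percentiles), were ordinary among probe sets as bright as themselves, at the 77.8th and 59.2nd percentiles. APOA2 SNOWBALL_000840 was at the 94.9th percentile by that ranking. Over all probe sets, 6 members were in the lowest 10% of SD and 5 in the highest 10%. A filter on SD with both percentiles taken over all probe sets therefore kept 8 of 20 members, against 74.9% of all probe sets, and no member among those 8 passed the threshold, which 2.66% of the probe sets kept did. The filter in steps kept 9 of 20, against 76.3% of all.

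**Figure D4:**
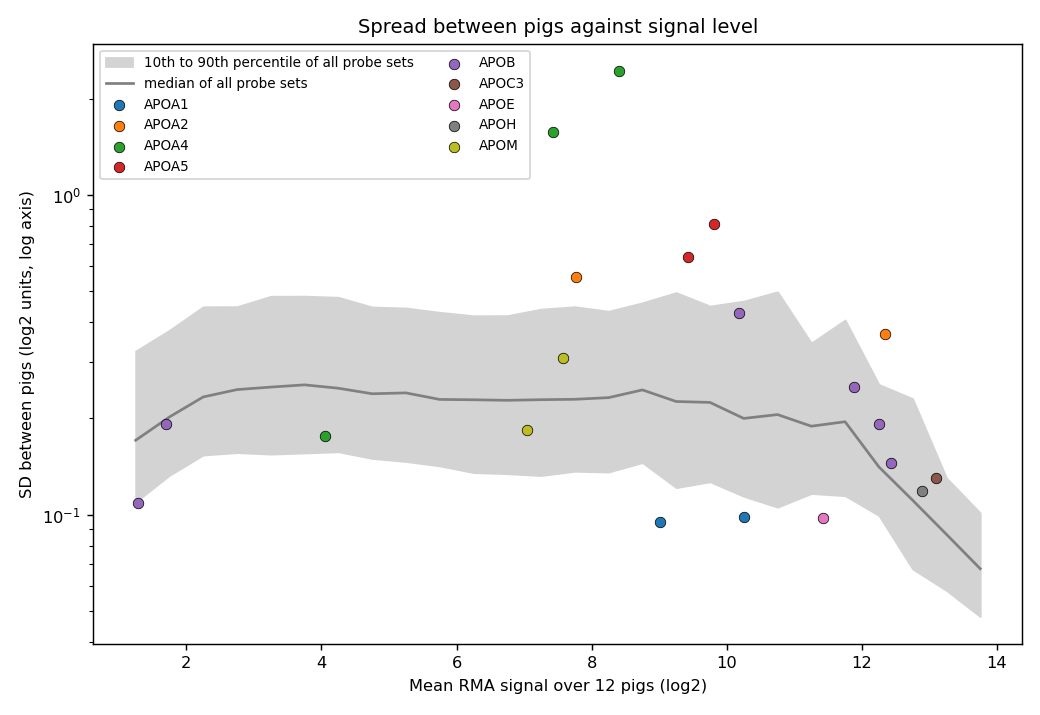
SD over the 12 pigs (log axis) against mean log2 signal, with 1 point per apolipoprotein probe set over the median and the 10th to 90th percentile of all probe sets of the array. APOA4 lies highest at an SD of 2.43, and the APOA1 and APOE points lie lowest, between 0.095 and 0.098.

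Sex was balanced within classes, and females were compared with males with class in the model. No apolipoprotein probe set passed the threshold (0 of 20, beside 0.0397% of all probe sets), and 2 of 20 had an unadjusted p under 0.05, beside 6.11% of all. Both were higher in females, beside 3.1% of all probe sets. These were APOA4 SNOWBALL_012467, with 9.75 ± 2.44 in females and 7.07 ± 1.67 in males (SD, n = 6 each), a difference of 2.67 ± 1.03 (SE; limma q = 0.741), and APOA5 SNOWBALL_012508, with a difference of 0.62 ± 0.28 (SE; limma q = 0.762). The high APOA4 values were found in 4 of 6 females and 1 of 6 males. Those females were pigs 5 and 6 of each class, whose animal numbers in the labels were higher than those of all other pigs. The other females, pig 4 of each class, read 6.45 (low RFI) and 7.03 (high RFI). All males had the lower animal numbers, so the comparison of females with males cannot fully separate sex from animal number. For the interaction of sex and class, no probe set of the array passed the threshold (0%), and 1 of 20 members, the dim APOA4 probe set SNOWBALL_034351, had an unadjusted p under 0.05, beside 4.44% of all (-0.53 ± 0.18, SE; limma q = 0.962).

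The pigs could also be compared by whether the same animals were high in several members. For the brightest probe set of 8 genes, with class means subtracted, 28 pairs were correlated over the 12 pigs, and APOA4 was left out because its pigs fell into separate groups. No pair reached an adjusted p of 0.05, and 2 had an unadjusted permutation p under 0.05. APOA2 and APOM, both carried on HDL, gave r = 0.81 (permutation p = 0.0035, adjusted 0.098) and rho = 0.84 (p = 0.00234 by permutation, adjusted 0.0655), and r = 0.68 without the 2 pigs farthest from the median of APOA2. The r was 0.92 in low RFI pigs and 0.61 in high RFI pigs. APOA5 and APOC3, which act in opposite ways on lipoprotein lipase, gave r = 0.72 (permutation p = 0.0175, adjusted 0.245), rho = 0.70 and, without 2 pigs, r = 0.54. For APOA2 and APOA5 the sign was negative, with r = -0.54 (permutation p = 0.0991, adjusted 0.694).

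**Figure D5:**
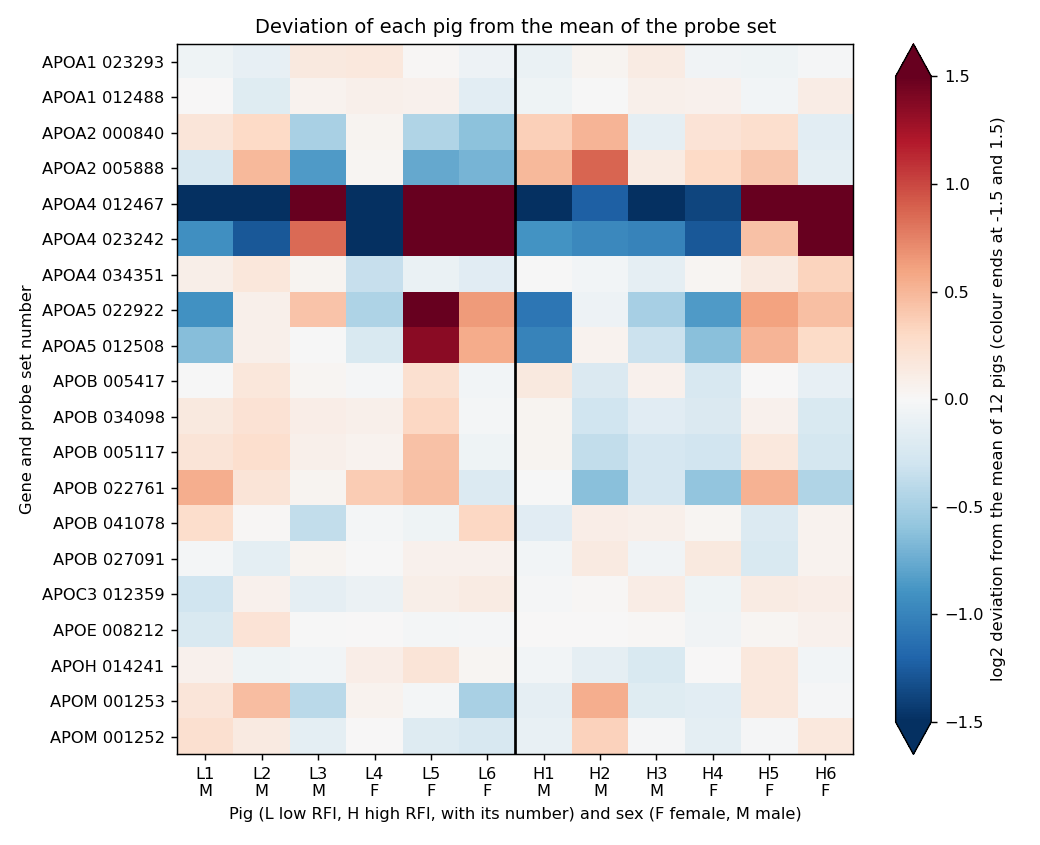
Log2 deviation of each pig from the mean of all 12 pigs, as colour, with values past either end of the scale in its end colour, for each apolipoprotein probe set (rows) and pig (columns, low RFI left of high RFI). Low RFI pigs 3, 5 and 6 and high RFI pigs 5 and 6 lie above the mean in the APOA4 probe sets SNOWBALL_012467 and SNOWBALL_023242. In both APOA2 probe sets, high RFI pig 5 lies above the mean and the other pigs of these lie below it. A relation of APOA4 to APOA2 was not tested.

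Genes that followed a member most closely were found by the same centred correlation over the 12 arrays, among 26426 probe sets with a single symbol, and are given as a description. APOA4 was followed most closely by LIPG, the endothelial lipase that hydrolyses HDL phospholipids (r = 0.97), and by WSB1 and AGPAT6 (0.95 each). Because the pigs fell into separate groups for APOA4, these r values can rest on that split. LIPG read 8.72, 9.70 and 9.82 in low RFI pigs 3, 5 and 6, and 8.71 and 8.60 in high RFI pigs 5 and 6, while the other pigs lay between 6.75 and 7.49. APOA5 was followed by ABHD5, the cofactor of adipose triglyceride lipase (0.94), ADCY9 (0.94) and ATP6V0A2 (0.93). ABHD5 was highest in low RFI pigs 5 and 6, at 9.55 and 8.90, and lowest in low RFI pig 1 at 6.95.

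The gene with the highest r was the protein kinase gene PAK2 for APOB (0.95), the integrin gene ITGB3 for APOA2 (0.95), CLMN for APOC3 (0.94) and CMAH, an enzyme of sialic acid synthesis, for APOE (0.95). It was the zinc finger gene ZFX for APOH (0.94), the tropomyosin gene TPM1 for APOA1 (0.92) and the peroxiredoxin gene PRDX1 for APOM (0.95). ITGB3 was among the 3 closest genes of both APOA2 and APOM.

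Beyond the members, 80 genes of lipoprotein biology were followed, of which 61 had a probe set, read through the brightest. None passed the threshold, and 8 of 61 had an unadjusted p under 0.05, beside 7.29% of all probe sets, with 5 higher and 3 lower in low RFI pigs, beside 3.79% and 3.51% of all. Over the array the share at that p was 9.39% with probe sets below the median signal left out. Among other apolipoproteins and HDL proteins (10 genes on the array, 1 higher), SAA4, a constitutive serum amyloid A of HDL, averaged 3.50 ± 0.42 in low RFI pigs and 2.69 ± 0.62 in high RFI pigs, a difference of 0.81 ± 0.27 (SE; limma q = 0.519). SAA4 was dim, and neither of its means lay above the median of all probe sets, 3.50. In lipoprotein assembly and secretion (14 genes, 1 higher), SAR1B, the GTPase that loads large particles into transport vesicles, gave 0.38 (q = 0.595). PLIN2, a coat protein of lipid droplets, differed by 0.85 ± 0.49 (SE) without passing that p, with low RFI pigs 5 and 6 at 8.66 and 8.68 while all other pigs lay between 5.57 and 6.35. SEC24B gave 0.32 (q = 0.616), and the endoplasmic reticulum chaperone HSPA5 gave -0.54 (q = 0.623). Of the lipase group (5 genes) none had that p, and LIPG averaged 8.29 ± 1.31 in low RFI pigs and 7.70 ± 0.76 in high RFI pigs (q = 0.733). LIPC, the hepatic lipase, and LCAT each differed by 0.02.

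Receptors and sterol transporters (14 genes) held 1 gene in each direction. CD36, a fatty acid translocase, was dim, at 2.73 ± 0.20 in low RFI pigs and 2.40 ± 0.17 in high RFI pigs (0.33, q = 0.519). Both means lay below the median of all probe sets, 3.50. SDC1, the heparan sulphate proteoglycan of remnant uptake, averaged 6.44 ± 0.11 in low RFI pigs and 6.89 ± 0.30 in high RFI pigs (-0.46, q = 0.488). Among 18 transcription factors that act on apolipoprotein genes, 2 were higher and 2 lower at that p. PPARGC1A, a coactivator of fasting metabolism, averaged 6.26 ± 0.41 in low RFI pigs and 5.37 ± 0.52 in high RFI pigs (0.89, q = 0.443), and NR1H4, the bile acid receptor, averaged 8.26 ± 0.19 in low RFI pigs and 7.83 ± 0.22 in high RFI pigs (0.43, q = 0.484). RXRA, the partner of many nuclear receptors, gave -0.22 (q = 0.580) and CEBPA, a factor of hepatocyte metabolism, gave -0.43 (q = 0.589). HNF4A, a main activator of apolipoprotein genes in hepatocytes, gave -0.50 ± 0.24 (SE; q = 0.605). The median difference of the 5 lists lay between -0.03 and 0.14.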

How the data were processed

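Liver RNA of 12 pigs, 1 pig per array, was hybridised to Affymetrix Snowball arrays. The authors normalized the scanned intensities by RMA, and the deposited values are log2 signals per probe set; the labels name GCOS version 1.1.1. RMA sets all arrays to one distribution, so differences are relative to the whole array. Gene symbols came from the platform annotation, and 26426 of 47845 probe sets had a single one. RFI class, taken from the labels, was fitted to all 47845 probe sets in limma 3.58.1 under R 4.3.3, with Storey's q over all of them (lambda 0.05 to 0.9 in steps of 0.05) and the study's threshold of 0.3. The study's filter on SD was an alternative here, because every member was to be reported, and was run in the readings given above. Neither reading kept exactly the number of probe sets that the study states. Sex was fitted with class, and then with an interaction. Correlations used 1e+05 permutations within classes and Benjamini-Hochberg adjustment over the pairs. The fit was tested on simulated data. Arrays have no read depth, so the number of pigs limits precision. All member probe sets were named. Other named genes were taken from the 4 of each list with the smallest p and from the 3 most like each member. Not every such gene was named. HNF4A, with the next smallest p of its list, was named outside this rule. The members and lists were chosen with earlier results of these data known. Alternatives covered filters, covariates, variance models, normalization and single pigs left out.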

Additional observations from a re-analysis of the deposited data

How the results depend on the processing

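The count of member probe sets called stayed at 0 in every alternative other than the SD filter in steps, which was chosen after seeing the data and gave 1 (APOB SNOWBALL_022761), and leaving out each pig in turn, which gave 0 to 3. Those at an unadjusted p under 0.05 numbered 4, but 3 of 8 with the SD filter, 2 with the control probe sets as covariate, 2 in males only and 2 in females only, and 3 to 5 with single pigs left out. Differences above 0 numbered 11 of 20, 4 of 8 with the SD filter, 5 of 9 with the filter in steps, and 10 to 13 with single pigs left out. List genes called numbered 0, 2 with the SD filter in either form (NR1H4 and SDC1), 2 with dim probe sets left out (NR1H4 and PPARGC1A), and 0 to 3 with single pigs left out; without high RFI pig 5 they were SDC1, PPARGC1A and NR1H4, and without high RFI pig 6 SAA4. Pairs of members at an adjusted p under 0.05 numbered 0 to 1 with single pigs left out, the pair being APOA2 and APOM without high RFI pig 1. Signs turned only for small differences. In males these were APOA1 SNOWBALL_023293 (-0.038), APOA4 SNOWBALL_034351 (0.16), APOB SNOWBALL_041078 (-0.029) and APOM SNOWBALL_001253 (0.0033) and SNOWBALL_001252 (0.0066). With quantile normalization APOA1 SNOWBALL_023293 gave -0.0049 and APOB SNOWBALL_027091 gave 0.0040, which also gave 0.083 with the covariate, 0.0068 with median centring and 0.054 in females. APOH gave -0.013 with the covariate. With single pigs left out, the ranges that crossed 0 were -0.0097 to 0.046 for APOA1 SNOWBALL_023293, -0.016 to 0.12 and -0.047 to 0.029 for APOB SNOWBALL_041078 and SNOWBALL_027091, -0.068 to 0.020 for APOE and -0.17 to 0.029 for APOM SNOWBALL_001253. The cause of these changes was not tested. No paired analysis was possible because the labels name neither litter nor sibling and the replicate numbers follow accession order only.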

Other observations

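APOR had no probe set under its own symbol. The RefSeq gene table lists that name as a synonym of C4BPA, the alpha chain of the complement regulator C4b-binding protein, so its probe sets were read after the members had been set. SNOWBALL_013219 averaged 9.58 ± 0.32 in low RFI pigs and 9.27 ± 0.40 in high RFI pigs, a difference of 0.31 ± 0.19 (SE, n = 6 each; limma q = 0.655). The dim SNOWBALL_013156 averaged 3.81 ± 0.20 in low RFI pigs and 3.74 ± 0.20 in high RFI pigs (limma q = 0.821).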
